A study of Mus musculus with 40 samples.

Results

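Nodal, its coreceptor and its antagonists were followed as 6 genes chosen by name: the ligand gene *Nodal*, the coreceptor gene *Tdgf1* (also called Cripto), the secreted antagonist genes *Lefty1*, *Lefty2* and *Cer1*, and *Smad7*, which encodes an intracellular inhibitor. They are 6 of 56748 gene identifiers in the count table, and 5 of them, all but *Cer1*, were among the 23399 genes with enough counts to be tested. The genes were chosen because some of them stood apart in naive cells without LBR, so their values there are given as a description and without a test. Total RNA was measured in 40 libraries of male (XY) mouse embryonic stem cells, each from its own culture well, in 8 groups made of 4 genotypes at 2 stages. Wild-type (WT) cells had 8 libraries per stage and each mutant 4.

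The LBRKO cells carried frameshift mutations of *Lbr*, the gene of the lamin B receptor, which tethers chromatin to the inner nuclear membrane. The libraries came from an unstated choice among several LBRKO clones. TKO cells lacked the lamin genes *Lmna*, *Lmnb1* and *Lmnb2*, and QKO cells came from 1 clone in which *Lbr* was disrupted on top of the lamin loss, with a frameshift deletion on one allele and an in-frame deletion on the other. The TKO line and its littermate WT line came from another laboratory, and the study's methods give trisomy 8 for the TKO line, part of it with loss of Y as well, and abnormal karyotypes in a minority of the WT line. Naive mES cells were kept in serum-free medium with LIF, 3 uM of the GSK3 inhibitor CHIR99021 and 1 uM of the MEK inhibitor PD0325901, with no added Activin. Epiblast-like cells (EpiLCs), a culture model of the epiblast around implantation, were harvested 48 h after transfer to 20 ng/mL FGF and 12 ng/mL Activin A, which signals through the receptors that Nodal uses. Since the libraries of a mutant were separate wells, the p-values below do not measure the spread between independently made lines. They rest on the spread between libraries within groups, shared over all groups, WT included.

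Nodal is a secreted ligand of the TGF-beta family that binds Activin receptors together with a coreceptor of the Cripto family, and the receptors then activate SMAD2 and SMAD3. Lefty proteins bind Nodal and its coreceptor and block the signal, and their genes are themselves targets of the pathway, so that the signal limits itself. Cerberus, encoded by *Cer1*, also binds Nodal outside the cell and is known from the anterior visceral endoderm, while SMAD7 blocks the receptors inside the cell. In the epiblast this pathway holds cells in primed pluripotency and later patterns mesoderm and endoderm.

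The stretch just before the start of each gene is shown because SMAD proteins bind short DNA elements in promoters of such target genes. RefSeq promoters (GRCm38.p6) were matched for 3 of the 6 genes, *Nodal*, *Tdgf1* and *Cer1*. The 250 bases before the start were searched on both strands for the SMAD box CAGAC and the FOXH1 motif AATNCACA, and capitals mark a SMAD box. The *Tdgf1* stretch (chr9:110946159-110946408, minus strand) held 1 SMAD box, 113 bases before the start. The *Cer1* stretch (chr4:82885152-82885401, minus strand) held 1 box, 213 bases before the start. The *Nodal* stretch (chr10:61417722-61417971, plus strand) held no SMAD box, and none of the 3 held the FOXH1 motif. Of 32851 promoter stretches of the same length, 42.2% held a SMAD box and 3.18% the FOXH1 motif, so the matches are a description of these letters only.
Tdgf1: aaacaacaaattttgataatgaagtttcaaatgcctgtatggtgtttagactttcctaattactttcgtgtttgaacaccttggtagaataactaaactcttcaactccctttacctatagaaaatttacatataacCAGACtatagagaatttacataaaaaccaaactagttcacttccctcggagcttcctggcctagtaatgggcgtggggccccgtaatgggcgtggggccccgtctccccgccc
Cer1: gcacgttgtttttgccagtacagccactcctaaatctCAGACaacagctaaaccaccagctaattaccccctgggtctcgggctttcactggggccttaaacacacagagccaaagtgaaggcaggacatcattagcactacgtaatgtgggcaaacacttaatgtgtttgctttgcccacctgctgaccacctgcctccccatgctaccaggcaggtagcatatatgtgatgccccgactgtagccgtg
Nodal: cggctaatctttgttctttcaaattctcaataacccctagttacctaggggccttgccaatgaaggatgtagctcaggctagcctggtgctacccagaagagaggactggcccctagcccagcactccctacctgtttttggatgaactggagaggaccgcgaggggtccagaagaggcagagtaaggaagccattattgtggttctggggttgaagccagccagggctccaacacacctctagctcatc

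Libraries held 22.59 to 48.86 M gene counts, and 26972 to 31946 genes had at least 1 count. Levels are given as CPM, counts scaled to library sizes adjusted by TMM, with SD over 8 WT or 4 mutant libraries, and fold changes are on the log2 scale with SE. A gene was called higher or lower when its Benjamini-Hochberg adjusted p from edgeR's quasi-likelihood test over all 23399 genes was under 0.05 and its fold change over 2. Among the targeted genes, the naive level of *Lmnb1* was 515 CPM in WT, 8.47 in TKO and 13.8 in QKO, that of *Lmnb2* 105, 4.30 and 2.58 CPM, and that of *Lmna* 57.8, 15.9 and 19.1 CPM. In EpiLCs *Lmna* was low in WT too (11.3 CPM) and was not called lower in TKO (7.75 CPM) or QKO (8.38 CPM). The naive level of *Lbr* was 372 ± 20.6 CPM in WT, 209 ± 64.4 in LBRKO and 237 ± 1.49 in QKO. The stages carried their labels: 8 naive markers summed to 4099 to 4790 CPM in WT mES cells and 113 to 183 in WT EpiLCs, and 6 primed markers to 161 to 256 and 3419 to 4086 CPM. Genes of other cell types were low in WT mES cells, where 10 endoderm markers summed to at most 11.3 CPM. For several of these genes WT mES replicates 1 to 4 stood apart from replicates 5 to 8, with no label that names a line or batch for either set, so values for each set are given beside the results they touch. All groups were in the same fit. This split therefore also enters the spread behind the SE and p-values of comparisons without WT mES cells. The sets differed in depth too. WT mES replicates 1 to 4 held 27.7 to 33.06 M counts and replicates 5 to 8 held 39.43 to 46.63 M. LBRKO mES libraries, at 39.73 to 47.96 M, were like replicates 5 to 8. TKO (27.14 to 33.57 M) and QKO mES libraries (24.49 to 30.63 M) were more like replicates 1 to 4. EpiLCs divided in the same way. What part this had in the values was not tested.

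*Nodal* (ENSMUSG00000037171.7, GRCm39 chr10:61253751-61261117) was expressed in every library. WT mES libraries held 73.3 CPM at the lowest, a median of 82.2 and 88.1 at the highest, and WT EpiLCs 55.3, 60.6 and 67.8 CPM. LBRKO mES libraries held 63.1, 61.1, 67.8 and 55.3 CPM, TKO 84.0, 89.3, 87.7 and 88.4, and QKO 100.8, 106, 96.9 and 97.6. All QKO mES libraries were thus above the WT range and all LBRKO mES libraries below it. In EpiLCs the mutants held 63.1 to 65.7 CPM (LBRKO), 64.7 to 75.2 (TKO) and 54.7 to 72.8 (QKO), each overlapping WT. Ordered by mean, QKO mES cells (100.2 ± 3.93 CPM) stood first and apart from TKO mES cells (87.4 ± 2.32), which overlapped WT mES cells (81.5 ± 5.18). These overlapped TKO EpiLCs (69.6 ± 4.60), and the 4 groups from there down, LBRKO, QKO and WT EpiLCs and LBRKO mES cells, lay between 61.5 and 64.0 CPM and overlapped their neighbours. *Nodal* thus spanned less than a 2-fold range over the 8 groups.

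*Tdgf1* (ENSMUSG00000032494.13, chr9:110768671-110775226, minus strand) was the most abundant of the 6 per kb of exon, at 94.9 ± 27.7 CPM per kb in WT mES cells and 240 ± 21.7 in WT EpiLCs. The pseudogene copies *Tdgf1-ps1* and *Tdgf1-ps2* exist in the genome, and reads that fit a copy as well as the gene are uncertain. WT mES replicates 1 to 4 held 333, 310, 303 and 318 CPM, and replicates 5 to 8 held 172, 190, 172 and 192. These sets did not overlap. WT EpiLCs held 539 CPM at the lowest, a median of 641 and 716 at the highest. LBRKO mES libraries held 151, 162, 123 and 120 CPM, all under the lowest WT library, and QKO EpiLCs 191, 187, 185 and 195 CPM, about as low as WT mES replicates 5 to 8. By mean, WT EpiLCs (630 ± 56.9 CPM) stood apart from LBRKO EpiLCs (493 ± 43.9), and these from TKO EpiLCs (355 ± 4.70). TKO EpiLCs overlapped TKO mES cells (351 ± 13.0), QKO mES cells (273 ± 8.78) overlapped WT mES cells (249 ± 72.7), and QKO EpiLCs (189 ± 4.40) fell within the WT mES range. LBRKO mES cells were last (139 ± 20.9) and apart from QKO EpiLCs.

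*Lefty1* (ENSMUSG00000038793.9, chr1:180762587-180765965, plus strand) had the widest range of the 6. WT mES replicates 1 to 4 held 34.2, 26.2, 28.9 and 35.6 CPM, and replicates 5 to 8 held 10.8, 9.14, 11.3 and 8.29. LBRKO mES libraries held 0.0639, 0.0920, 0.0849 and 0.0250 CPM, which are 3, 4, 4 and 1 counts. TKO mES libraries held 18.5, 17.3, 17.1 and 20.9 CPM, between the WT sets, and QKO mES libraries 5.78, 6.86, 6.13 and 5.66, all under the lowest WT library. The gene was close to silent in naive LBRKO cells and reduced, but clearly present, in naive QKO cells. WT EpiLCs held 39.9 CPM at the lowest, a median of 80.2 and 101.2 at the highest. LBRKO EpiLCs held 35.8, 36.7, 74.5 and 48.3 CPM, TKO EpiLCs 129, 122, 135 and 149, and QKO EpiLCs 77.8, 105, 127 and 113. TKO EpiLCs were thus above every WT EpiLC library, while LBRKO and QKO EpiLCs overlapped WT. From TKO EpiLCs (134 ± 11.9 CPM) down through QKO (106 ± 20.9), WT (75.5 ± 22.1) and LBRKO EpiLCs (48.8 ± 18.0) each group overlapped the next. The lowest LBRKO EpiLC library lay just above the highest WT mES library, TKO mES cells (18.4 ± 1.75) lay inside the WT mES range (20.6 ± 11.8), and QKO (6.11 ± 0.537) and LBRKO mES cells (0.0664 ± 0.0301) each stood apart.

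*Lefty2* (ENSMUSG00000066652.6, chr1:180720673-180726668, plus strand) lies 35.9 kb before *Lefty1* on the same strand. WT mES replicates 1 to 4 held 35.1, 26.6, 30.8 and 34.5 CPM, and replicates 5 to 8 held 14.0, 15.6, 13.1 and 10.8. LBRKO mES libraries held 0.128, 0.115, 0.191 and 0.150 CPM, or 6, 5, 9 and 6 counts. TKO mES libraries held 24.4 to 26.9 CPM and QKO mES libraries 26.0, 20.6, 24.9 and 25.5. TKO and QKO mES libraries thus lay above all of WT replicates 5 to 8, and every QKO library and 2 of 4 TKO libraries lay below all of replicates 1 to 4. In EpiLCs the libraries ran from 27.7 to 33.9 CPM in WT, 22.8 to 29.5 in LBRKO, 23.2 to 27.4 in TKO and 30.9 to 34.2 in QKO. The order by mean was QKO (32.2 ± 1.48 CPM), WT (31.2 ± 2.82) and LBRKO EpiLCs (25.9 ± 3.27), TKO mES cells (25.7 ± 1.30), TKO EpiLCs (25.1 ± 1.80), QKO (24.3 ± 2.5) and WT mES cells (22.6 ± 10.2), each overlapping the next, and then LBRKO mES cells at 0.146 ± 0.0334 CPM, far apart. The 2 Lefty genes are close paralogs, so reads shared between them are uncertain. With counts that keep reads of several positions, LBRKO mES cells held 0.0614 CPM of *Lefty1* and 0.146 of *Lefty2*, against 19.2 and 23.2 in WT.

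*Smad7* (ENSMUSG00000025880.12, chr18:75500600-75529006) was split by stage in every genotype. WT mES libraries held 47.7 CPM at the lowest, a median of 65.0 and 70.9 at the highest, and WT EpiLCs 122, 151 and 161. The mutant mES libraries held 45.5 to 58.9 CPM (LBRKO), 66.1 to 72.0 (TKO) and 76.3 to 82.2 (QKO), and the mutant EpiLCs 118 to 164 (LBRKO), 154 to 172 (TKO) and 115 to 142 (QKO). Every EpiLC library was above every mES library. TKO, WT, LBRKO and QKO EpiLCs, in that order, had means of 162, 147, 144 and 129 CPM and overlapped their neighbours. QKO mES cells (80.4 ± 2.80 CPM) stood apart from the groups on either side, while TKO (68.0 ± 2.74), WT (62.3 ± 8.71) and LBRKO mES cells (52.2 ± 5.85) overlapped in turn.

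*Cer1* (ENSMUSG00000038192.6, chr4:82799988-82803385, minus strand) was at or near 0. Of 20 mES libraries 19 had no count and WT replicate 7 had 1, which over all mES libraries is under the 3 counts that a count of 0 allows (0.00427 CPM). WT EpiLCs had 7 counts in all, in 3 of 8 libraries, LBRKO EpiLCs 1, TKO EpiLCs 7 in 2 of 4 libraries, and QKO EpiLCs 30, as 3, 13, 5 and 9. QKO EpiLCs were the only group with *Cer1* counts in every library, at 0.235 ± 0.134 CPM, against a floor of 0.0841 to 0.108 CPM for 3 counts in a library. The gene was under the filter for low counts and was not tested. The 3 markers of anterior visceral endoderm, the tissue *Cer1* is known from, summed to 4.62 to 5.47 CPM in QKO EpiLCs and 5.05 to 7.04 in WT EpiLCs. Of these 3 markers 1 was called higher in QKO EpiLCs, *Lhx1* (1.83 ± 0.47, edgeR adjusted p = 0.00099), at 0.688 ± 0.124 CPM against 0.183 ± 0.125 in WT. What part this difference had in the *Cer1* counts was not tested.

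**Figure D1:**
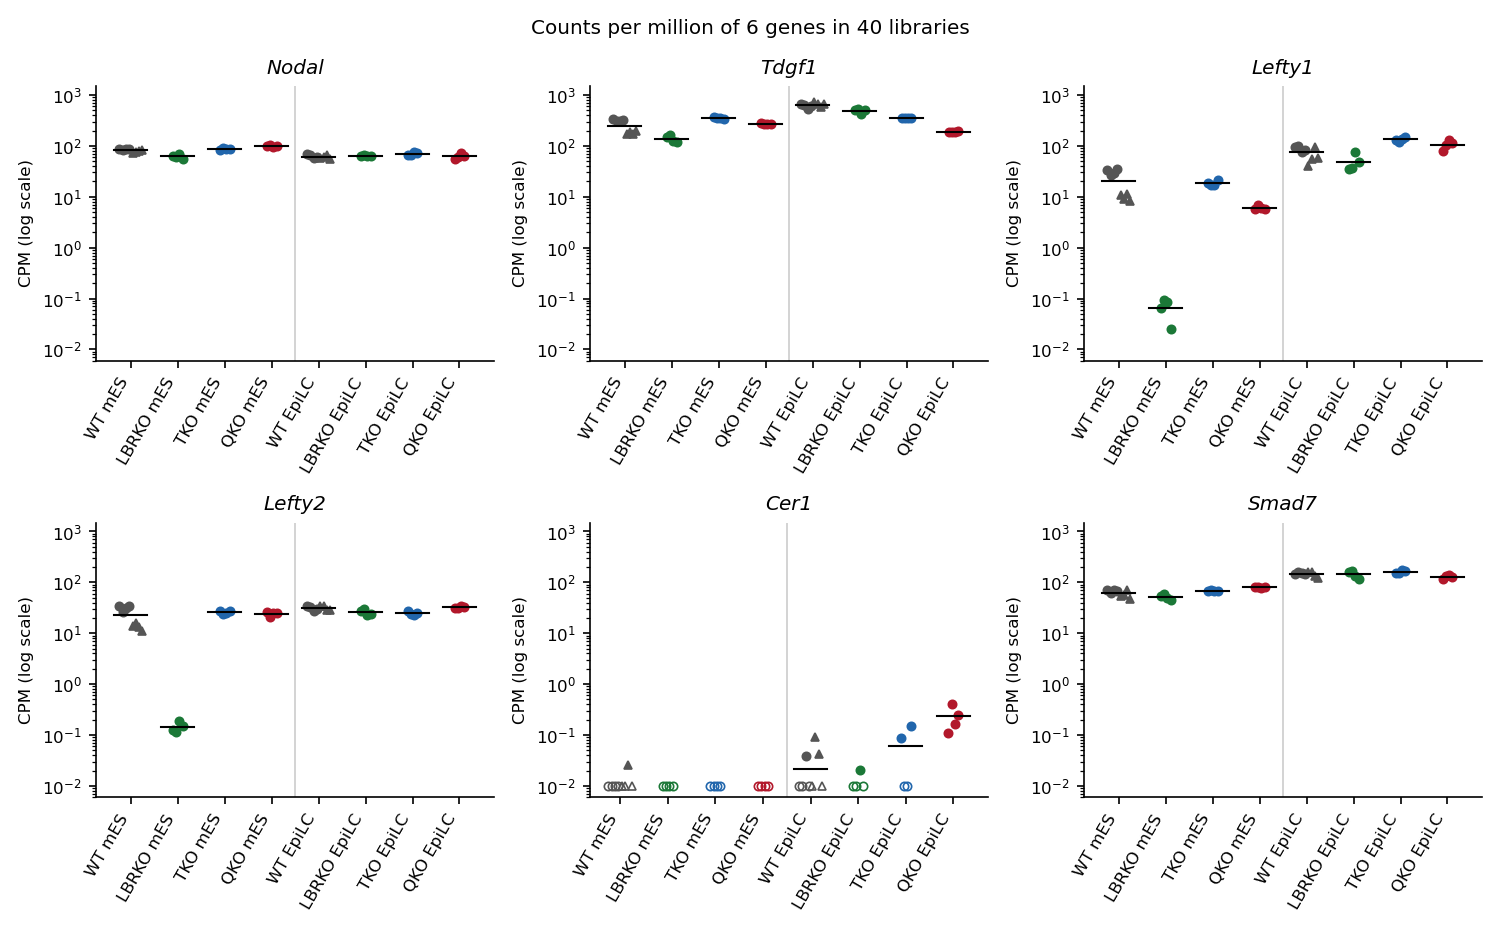
CPM of the 6 genes in all 40 libraries on a log axis, with each point a library, triangles for WT replicates 5 to 8, open symbols at the bottom for libraries with no count, and lines at group means. *Lefty1* and *Lefty2* lie under 0.2 CPM in the 4 LBRKO mES libraries and above 5 CPM in every other library.

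The passage of WT cells from naive to EpiLC set cells in FGF and Activin A against cells in LIF, CHIR99021 and PD0325901, both harvested after 48 h, so the effects of the agents added and of those removed cannot be told apart here. Of 23399 genes 18.2% were called higher and 12.9% lower, and of the 5 tested genes 3 were called higher. *Lefty1* rose 3.71-fold (1.89 ± 0.23, edgeR adjusted p = 1.59e-09), *Tdgf1* by 1.34 ± 0.11 (adjusted p = 7.8e-15) and *Smad7* by 1.24 ± 0.07 (adjusted p = 1.1e-18), each with every EpiLC library above every mES library. *Nodal* was lower in all EpiLC libraries but not 2-fold (-0.41 ± 0.05, adjusted p = 3.71e-09). *Lefty2* was at 0.47 ± 0.15 (adjusted p = 0.00623) with overlapping libraries. The choice of WT libraries bears on 3 of these values. With replicates 1 to 4 alone *Lefty1* was at 1.51, *Tdgf1* at 0.95, under 2-fold, and *Lefty2* at -0.02. With replicates 5 to 8 alone *Lefty1* was at 2.65, *Tdgf1* at 1.84 and *Lefty2* was called higher at 1.22.

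The other genes of the pathway were taken as a list of 52 in 6 roles, of which 47 were tested. In the WT passage 6 were higher and 6 lower (25.5%, against 31.1% of all genes), with a median of -0.06. Among inhibitors *Skil*, a SMAD corepressor induced by the signal, rose from 54.1 ± 7.42 to 426 ± 50.7 CPM (2.98 ± 0.08), and *Fstl3*, which binds Activin, by 3.02 ± 0.33. The target gene *Fgf8*, for a growth factor, rose by 3.69 ± 0.32. Of 4 mesendoderm markers, targets known from the primitive streak, *Gsc* fell by 4.06 and *T* by 2.63 on the log2 scale, while *Mixl1* was at 0.77 ± 0.20 (edgeR adjusted p = 0.000738) and *Eomes* at 0.24 ± 0.08 (adjusted p = 0.00812), both under 2-fold. *Inhbb*, a subunit of Activin B, fell from 4.53 ± 0.954 to 0.424 ± 0.108 CPM (-3.42 ± 0.24), the receptor gene *Tgfbr2* was at -1.66 ± 0.15, and the convertase gene *Pcsk6*, whose product cleaves the Nodal precursor, fell from 118 ± 5.10 to 24.7 ± 2.09 CPM (-2.26 ± 0.06). *Trim33*, a SMAD cofactor, was just past 2-fold (1.01 ± 0.08). Of 16 genes of the related BMP branch, 2 were higher and 5 lower.

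In naive LBRKO cells, the comparison the genes were chosen on, *Lefty1* was 286-fold lower than in WT (-8.16 ± 0.62) and *Lefty2* 150-fold lower (-7.22 ± 0.35). These values are a description. *Tdgf1* was at -0.84 ± 0.13, *Nodal* at -0.40 ± 0.06 and *Smad7* at -0.25 ± 0.09. For *Lefty1*, *Lefty2*, *Tdgf1* and *Nodal* every LBRKO library lay under every WT library. Against WT replicates 5 to 8 alone the values were -7.12 for *Lefty1*, -6.48 for *Lefty2* and -0.38 for *Tdgf1*. Against replicates 1 to 4 alone they were -8.77, -7.72 and -1.18. The size of the *Tdgf1* difference thus rested on the WT libraries it was set against. In bulk RNA, fewer cells that express a gene and less RNA per cell cannot be told apart.

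With all WT libraries, few other genes of the pathway were called in naive LBRKO cells. Of 47 tested genes 2 were called higher and 1 lower (6.38%, against 6.31% of all genes, 3.06% higher and 3.25% lower), with a median of 0.01. *T*, a T-box factor of mesoderm, rose to 7.23 ± 0.298 CPM from a WT level of 2.08 ± 1.98 (1.77 ± 0.46), and *Tgfbr2* rose from 3.63 ± 0.600 to 7.997 ± 1.54 CPM (1.14 ± 0.16). Without LBRKO mES replicate 1, 1 was higher. Against WT replicates 1 to 4 alone 10 of the 47 were called, beside 2556 of all genes (1477 with all WT libraries). The pathway count thus depended on the WT libraries used. Of the BMP branch 2 of 16 were higher and 1 lower.

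Markers of other cell states were also different in these libraries. Of 8 tested endoderm markers 3 were higher, with a sum of 21.6 to 25.1 CPM against 9.37 to 11.3 in WT mES cells, of 4 trophectoderm markers 2 were higher (66.8 to 71.3 against 25.1 to 40.4 CPM) and of 4 mesendoderm markers 1 was higher (21.5 to 24.9 against 12.8 to 15.8 CPM). The naive markers summed to 3671 to 4638 CPM, overlapping WT. The 6 primed markers summed to 189 to 218 CPM against 161 to 256 in WT, and 2 of them were lower. *Otx2*, a homeobox factor of the primed epiblast, was at -3.99 ± 0.47 (edgeR adjusted p = 7.88e-09). It held 0.405 to 0.644 CPM in LBRKO and 2.68 to 17.4 in WT libraries. The other, *Fgf5*, had 28 counts in all WT mES libraries and 0 in LBRKO. Under 2-fold, *Sox3* (-0.94, edgeR adjusted p = 0.00445) and *Zic2* (-0.77, 7.47e-06) were lower and *Pou3f1* (0.86, 5.52e-05) higher. *Dnmt3b* was at 0.22 (adjusted p = 0.119). What part these differences had in the Lefty values was not tested.

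In naive TKO cells every tested member was under 2-fold from WT. *Lefty1* was at -0.14 ± 0.29 (edgeR adjusted p = 0.792), *Lefty2* at 0.20 ± 0.19 (0.52), *Nodal* at 0.10 ± 0.06 (0.284) and *Smad7* at 0.13 (0.357). *Tdgf1* was higher in all TKO libraries but not 2-fold (0.50 ± 0.12, adjusted p = 0.0026). Of all genes 6.45% were called, 2.68% higher and 3.77% lower, and of the 47 pathway genes 3 were lower (6.38%), the ligand gene *Tgfb2*, the coreceptor gene *Tgfbr3* (-1.24 ± 0.28) and *T* (-2.72 ± 0.65), all with libraries that overlapped WT. Set against WT replicates 1 to 4 alone 1 pathway gene was called, beside 1294 of all genes. Against replicates 5 to 8 alone it was 8, beside 2091 of all genes (1509 with all WT libraries). Against replicates 5 to 8 *Lefty1* was at 0.90 (edgeR adjusted p = 0.000894), and against replicates 1 to 4 at -0.76 (adjusted p = 0.000589). Its direction in TKO cells thus depended on the WT libraries used. *Lefty2* turned in the same way, from 0.94 against replicates 5 to 8 (adjusted p = 3.25e-09) to -0.30 against replicates 1 to 4 (adjusted p = 0.014). *Tdgf1* was at 0.95 and 0.15 against these sets.

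In naive QKO cells, which lack the lamins and LBR together, *Lefty1* was the 1 member called, 3.3-fold lower than WT (-1.74 ± 0.33, edgeR adjusted p = 2.69e-05), beside 6.66% of all genes called lower. Against WT replicates 5 to 8 alone it was at -0.70 (adjusted p = 0.0106), under 2-fold, and against replicates 1 to 4 alone at -2.35 (adjusted p = 5.66e-13). *Lefty2* was at 0.11 ± 0.19 (adjusted p = 0.662) and *Tdgf1* at 0.13 (0.413), and both turned with the WT set. *Lefty2* was at 0.86 against replicates 5 to 8 (adjusted p = 1.04e-08) and -0.38 against replicates 1 to 4 (adjusted p = 0.000717), and *Tdgf1* at 0.59 (adjusted p = 1.82e-07) and -0.21 (adjusted p = 0.0186). *Nodal* (0.30 ± 0.06, adjusted p = 0.000116) and *Smad7* (0.37 ± 0.09, adjusted p = 0.000732) were higher in every QKO library, both under 2-fold. Of the 47 pathway genes 1 was higher and 5 lower (12.8%, against 17.2% of all genes called and 10.6% called higher), among them *Eomes*, a T-box factor of mesendoderm, which fell from 6.70 ± 0.431 to 2.45 ± 0.323 CPM, and *Dand5*, a secreted Nodal antagonist of the Cerberus family (-1.16 ± 0.18). The 1 higher gene, *Pcsk5*, had 0.462 ± 0.0647 CPM against 0.204 ± 0.113 in WT, and the count of higher genes was 0 without WT mES replicate 1 or 2 or any 1 QKO mES library and 2 without WT mES replicate 3 or 5.

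QKO was also set against TKO, its parent line. Here the fold change does not rest on WT libraries, but the SE and p-values do, since all groups share the estimate of spread. *Lefty1* was lower in all QKO mES libraries (-1.60 ± 0.36, edgeR adjusted p = 0.00093), beside 6.21% of all genes called (4.09% higher and 2.12% lower). *Lefty2* was at -0.08 ± 0.22 (adjusted p = 0.837). *Tdgf1* was lower in every QKO library, at -0.36 ± 0.15 (adjusted p = 0.074), and *Nodal* was at 0.20 ± 0.07 (adjusted p = 0.0454) and *Smad7* at 0.24 ± 0.10 (adjusted p = 0.0954). With WT replicates 1 to 4 alone in the fit *Lefty1* was at -1.59 (edgeR adjusted p = 2.1e-08) and *Tdgf1* at -0.36 (0.000261). With replicates 5 to 8 alone they were at -1.60 (9.26e-07) and -0.37 (0.000555). *Lefty2* stayed at -0.08 with either set (0.562 and 0.578). Of the pathway list 1 gene was called, *Eomes* (-1.42 ± 0.13). Of the 2 Lefty genes *Lefty1* was thus the one called in QKO cells, and the difference between them was not tested. The pathway count was 4 without TKO mES replicate 2 and 3 without QKO mES replicate 4.

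**Figure D2:**
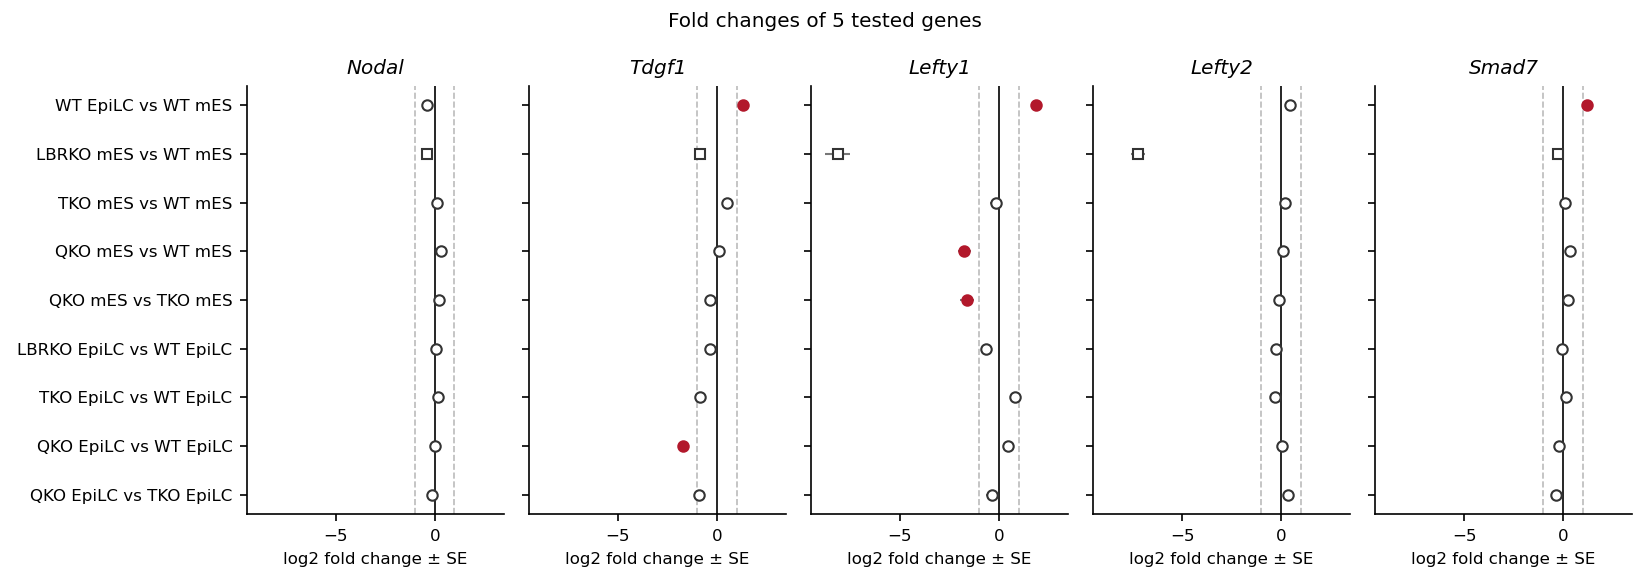
Log2 fold changes with SE of the 5 tested genes in 9 comparisons, filled red where called, open circles where not, and squares for LBRKO mES cells, where no test is given. Dashed lines mark 2-fold. *Lefty1* and *Lefty2* stand at -8.16 and -7.22 in LBRKO mES cells, and *Lefty1* alone of the 2 is called in QKO mES cells.

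After 48 h in EpiLC medium the Lefty genes of LBRKO cells were back among the expressed genes. *Lefty1* was at -0.63 ± 0.28 against WT EpiLCs (edgeR adjusted p = 0.0938) and *Lefty2* at -0.27 ± 0.19 (adjusted p = 0.329), neither past the threshold. With WT replicates 1 to 4 alone they were at -0.86 (adjusted p = 3.07e-05) and -0.27 (0.018). With replicates 5 to 8 alone they were at -0.34 (0.198) and -0.26 (0.0428), so all were under 2-fold. *Nodal* was at 0.06 (adjusted p = 0.558) and *Smad7* at -0.03 (adjusted p = 0.825). *Tdgf1* was lower in all LBRKO libraries, under 2-fold (-0.35 ± 0.13, adjusted p = 0.0379). Of all genes 5.67% were called, 3.04% higher and 2.63% lower, and of the 47 pathway genes 1 was higher, *Inhbb* (1.42 ± 0.727 against 0.424 ± 0.108 CPM), and 1 lower. As a description, the change from mES cells to EpiLCs was larger in LBRKO than in WT by 7.54 ± 0.71 for *Lefty1* and 6.96 ± 0.41 for *Lefty2*, and by 0.46 ± 0.09 for *Nodal*, 0.48 ± 0.18 for *Tdgf1* and 0.22 ± 0.13 for *Smad7*. Against WT replicates 5 to 8 alone the *Tdgf1* value was -0.01. LBRKO EpiLCs also held more RNA of naive markers, which summed to 232 to 353 CPM against 113 to 183 in WT EpiLCs. Of 8 such markers 3 were called higher, *Esrrb* (2.32 ± 0.09), *Nr0b1* (2.77 ± 0.17) and *Zfp42* (1.53 ± 0.13). Their part in the members' values was not tested.

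In TKO EpiLCs *Lefty1* was higher in all libraries than in any WT library, under 2-fold (0.83 ± 0.26, edgeR adjusted p = 0.0258), and *Tdgf1* was lower in all (-0.83 ± 0.13, adjusted p = 1.04e-05). Against WT replicates 5 to 8 alone *Lefty1* passed 2-fold, at 1.11. *Lefty2* was lower in every TKO library but did not pass the threshold (-0.32 ± 0.19, adjusted p = 0.293), and *Nodal* was at 0.18 ± 0.06 (adjusted p = 0.0491) and *Smad7* at 0.14 (adjusted p = 0.316). With WT replicates 1 to 4 or 5 to 8 alone *Lefty2* was at -0.32 (edgeR adjusted p = 0.0153) or -0.31 (0.0168), under 2-fold. Of the pathway list *Inhbb* alone was called, lower (0.180 ± 0.160 against 0.424 ± 0.108 CPM, with overlapping libraries), beside 2.91% of all genes called (1.44% higher and 1.48% lower), and it was not called without WT EpiLC replicate 1, 2 or 4 or TKO EpiLC replicate 3 or 4.

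In QKO EpiLCs *Tdgf1* was 3.3-fold lower than in WT (-1.73 ± 0.14, edgeR adjusted p = 5.99e-14), beside 8.16% of all genes called lower. It was also lower than in TKO EpiLCs in every library (-0.91 ± 0.15, adjusted p = 3.09e-06). *Tdgf1* RNA thus stepped down from WT to TKO to QKO, with each step under 2-fold. *Lefty1* was at 0.49 ± 0.26 (adjusted p = 0.114), *Lefty2* at 0.05 ± 0.19 (0.859) and *Nodal* at 0.04 (0.658). Against WT replicates 1 to 4 alone *Lefty1* was at 0.25 (edgeR adjusted p = 0.162), and against replicates 5 to 8 alone at 0.77 (0.000731). *Smad7* was at -0.19 ± 0.09 against WT (adjusted p = 0.0717) and lower than TKO in every library (-0.33 ± 0.10, adjusted p = 0.0086), under 2-fold. *Lefty1*, *Lefty2* and *Nodal* against TKO were at -0.34 ± 0.31, 0.36 ± 0.22 and -0.14 (adjusted p of 0.402, 0.185 and 0.117). With WT replicates 1 to 4 or 5 to 8 alone in the fit, *Lefty2* stayed at 0.36 (edgeR adjusted p = 0.0012 or 0.00271), under 2-fold. The adjusted p of *Lefty1* and *Nodal* stayed above 0.05 with either set.

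Of 47 pathway genes 4 were higher and 5 lower in QKO EpiLCs than in WT (19.1%, close to the 21.2% of all genes called, with 13.0% called higher). The coreceptor genes *Eng* (75.9 ± 7.72 against 26.2 ± 4.16 CPM) and *Tgfbr3* (14.4 ± 1.23 against 5.02 ± 1.31 CPM) rose, as did *Eomes* (21.4 ± 0.973 against 7.93 ± 1.00 CPM). *Smad6*, an inhibitor of the BMP branch, fell (1.01 ± 0.168 against 3.65 ± 0.924 CPM), as did the convertase gene *Furin* (14.1 ± 3.02 against 31.5 ± 3.29 CPM). Against TKO 5 were higher and 4 lower (19.1%, against 15.3% of all genes, 9.97% higher and 5.29% lower), with *Eng* at 1.68 ± 0.10 and *Smad6* at -2.33 ± 0.18. The 4 mesendoderm markers, of which *Eomes* is 1, summed to 22.0 to 23.6 CPM in QKO EpiLCs and 8.51 to 11.5 in WT, and 1 of 4 was higher and 1 lower. Markers of other states differed in the same libraries. Of 8 naive markers 4 were higher and 1, *Nanog*, lower, with a sum of 165 to 199 CPM against 113 to 183 in WT. Of 8 tested endoderm markers 3 were higher and 2 lower. Of 3 pluripotency markers 1, *Sox2*, was called higher (1.12 ± 0.08). *Pou5f1* was at -0.77 ± 0.10 (edgeR adjusted p = 2.91e-08) and *Sall4* at 0.19 ± 0.07 (0.0265), both under 2-fold. These 3 summed to 811 to 919 CPM against 864 to 1030.5 in WT. Their part in the values of *Tdgf1* and the pathway genes was not tested.

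**Figure D3:**
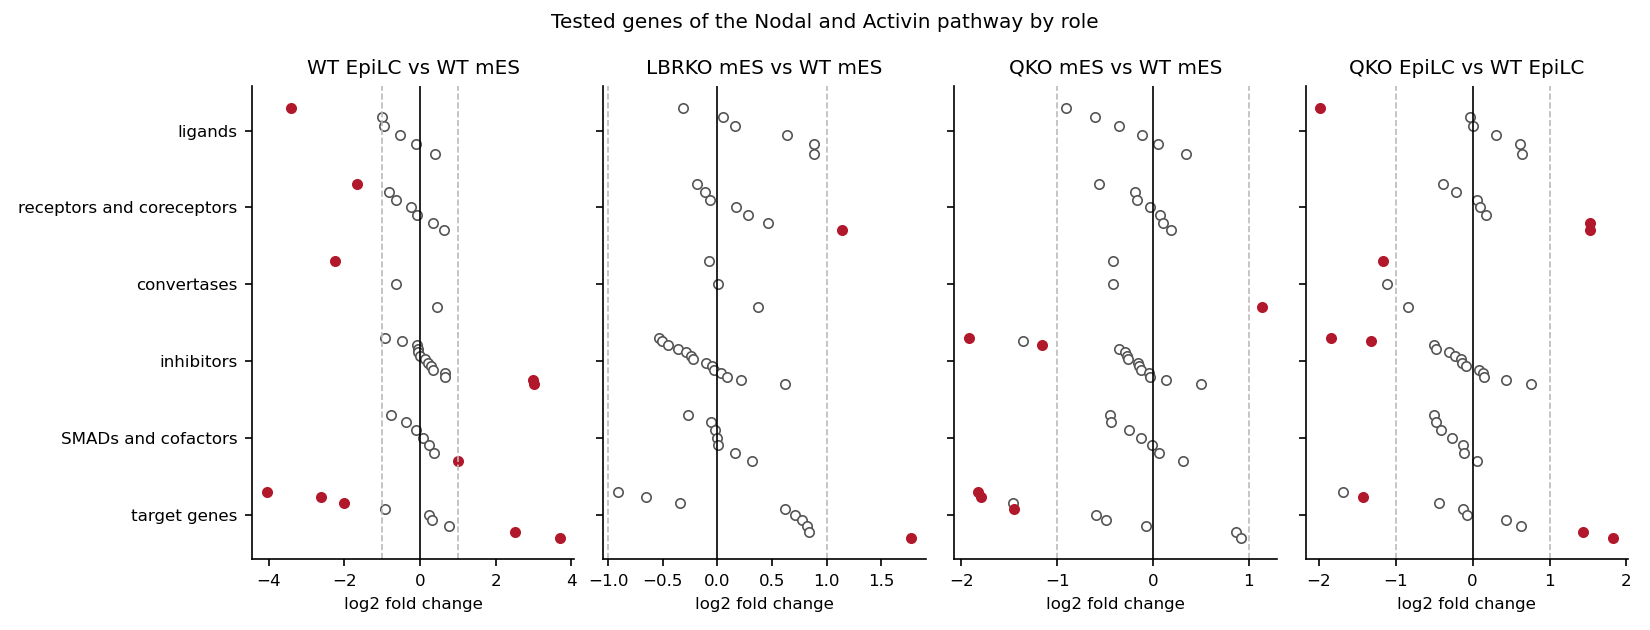
Log2 fold changes of tested pathway genes other than the 6 genes, by role, with 1 of the 47 not drawn, in 4 comparisons, with called genes in red and dashed lines at 2-fold. The x axes differ between panels. In LBRKO mES cells *Tgfbr2* and *T* are the called genes above 0, at 1.14 and 1.77.

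Whether the passage itself differed from that of WT was tested as an interaction in TKO and QKO. The change of *Tdgf1* was lower than in WT in TKO (-1.32 ± 0.18, edgeR adjusted p = 9.62e-07) and in QKO (-1.87 ± 0.18, adjusted p = 4.59e-11), beside 1.15% and 5.69% of all genes called lower. Its mean went from 249 to 630 CPM in WT, from 351 to 355 in TKO and from 273 to 189 in QKO. With WT replicates 1 to 4 alone the TKO value was -0.93, under 2-fold. *Lefty1* rose more in QKO than in WT (2.23 ± 0.42, adjusted p = 3.97e-05), beside 6.94% of all genes called higher. That value was 2.60 with WT replicates 1 to 4 alone (adjusted p = 6.29e-11) and 1.47 with replicates 5 to 8 alone (adjusted p = 0.000148). In TKO it was at 0.97 ± 0.39 (adjusted p = 0.129), or 1.35 with replicates 1 to 4 alone (adjusted p = 5.88e-05) and 0.21 with replicates 5 to 8 alone (adjusted p = 0.736). *Lefty2* was at -0.51 ± 0.27 in TKO (adjusted p = 0.278), or -1.25 and called with WT replicates 5 to 8 alone, and -0.07 ± 0.26 in QKO (0.894). The QKO value was -0.81 with replicates 5 to 8 alone (adjusted p = 1.74e-05) and 0.43 with replicates 1 to 4 alone (adjusted p = 0.00951). In QKO *Nodal* fell more than in WT (-0.26 ± 0.09, adjusted p = 0.0207) and *Smad7* rose less (-0.56 ± 0.13, adjusted p = 0.000563), both under 2-fold. In TKO they were at 0.08 (0.713) and 0.01 (0.977). Of the pathway list 10 of 47 genes were called in the LBRKO interaction (21.3%, against 6.0% of all genes, 3.12% higher and 2.88% lower), 1 in TKO (2.13%, against 3.03% of all genes, with 1.88% higher) and 12 in QKO (25.5%, against 12.6%). The LBRKO count was 4 with WT replicates 5 to 8 alone, beside 1247 of all genes (1405 with all WT libraries). The TKO count was 2 or less without any 1 library. These comparisons share the WT libraries.

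*Lefty1*, *Lefty2* and the edited gene *Lbr* lie on chromosome 1, with 877 kb from the end of *Lefty1* to the start of *Lbr* and 10 tested genes between. All 44 tested genes from 1 Mb before *Lefty2* to 1 Mb past *Lbr*, other than these 3, were therefore listed. In naive LBRKO cells 3 were higher and 3 lower (13.6%, against 6.31% of all genes), with a median of -0.01. The 3 lower genes were *Gm57186*, which overlaps *Lefty2* on the opposite strand (-4.91 ± 0.56), *Tmem63a* (-1.45 ± 0.17, edgeR adjusted p = 1.29e-08) and *Ephx1*, for an epoxide hydrolase (-1.12 ± 0.19, adjusted p = 8.8e-06). Reads of *Gm57186* cannot be told apart from those of *Lefty2*. Its value may therefore repeat that of *Lefty2*, so it is a description, and the share of 13.6% includes it. *Tmem63a* and *Ephx1* follow *Lefty1*. Farther out, *Sde2* was at -0.02 ± 0.08 and *Gm20305* at 0.65 on one side, and *Nvl* at -0.07 on the other. *Sde2*, *Nvl* and *Gm20305* were singled out after their values were seen.

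In CPM, *Tmem63a* went from 4.09 ± 1.21 in WT to 1.48 ± 0.387 in LBRKO mES cells and *Ephx1* from 11.6 ± 4.00 to 5.33 ± 0.135. In TKO and QKO mES cells they held 5.00 and 5.75 CPM, and 9.85 and 11.7 CPM. These neighbours, like the Lefty genes, differed between the WT sets: replicates 1 to 4 and 5 to 8 held 15.1 and 8.10 CPM of *Ephx1* and 5.17 and 3.01 of *Tmem63a*. *Nvl* was at 121 and 123 CPM. *Sde2* differed between the sets in the other direction, at 86.2 ± 4.93 and 102.5 ± 3.11 CPM. Against replicates 5 to 8 alone *Tmem63a* was still called (-1.02, adjusted p = 3.07e-06), and *Ephx1* was under 2-fold (-0.61, adjusted p = 0.00158). *Gm57186* held 0.6247 ± 0.307 CPM in WT mES cells, and since it is not known whether reads were counted by strand, its reads and those of *Lefty2* cannot be told apart. In LBRKO EpiLCs the same genes were at -0.09 (*Gm57186*, adjusted p = 0.844), -0.52 (*Tmem63a*, 0.00792) and 0.23 (*Ephx1*, 0.403), and 2 other genes of the 44 were lower, *H3f3aos* (-1.12) and *Cnih3* (-1.24), both under 2 CPM. Without LBRKO EpiLC replicate 2, 1 of these was called. The genes higher in naive LBRKO cells, *Capn2* (1.18 ± 0.07), *Gm37069* and *Susd4* (1.08 ± 0.12), lie past *Lbr*.

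**Figure D4:**
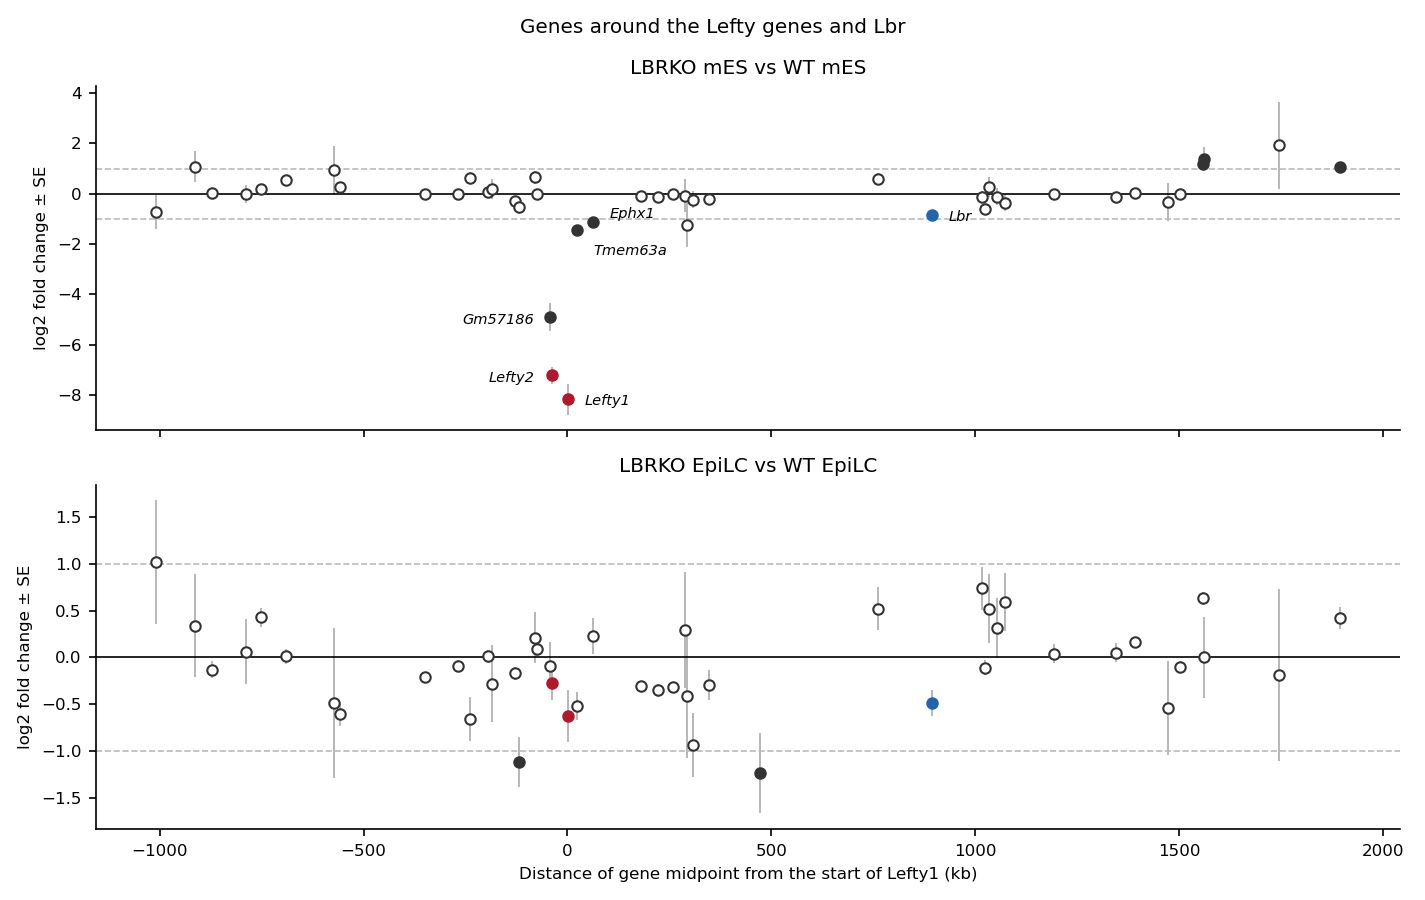
Log2 fold changes with SE of tested genes around *Lefty2*, *Lefty1* (red) and *Lbr* (blue) by distance of the gene midpoint from the start of *Lefty1*, in LBRKO mES cells (top) and LBRKO EpiLCs (bottom, smaller y scale), with other genes filled where called and dashed lines at 2-fold. *Cnih3*, with no counts in WT or LBRKO mES cells, is not drawn in the top panel. A gene that is not reported here is left out of both panels. In mES cells the lowest values are those of *Lefty1*, *Lefty2* and *Gm57186*.

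The genes most like each member over the 8 groups were found by the root-mean-square difference between centred group means of log2 CPM. Of the 23399 genes, those with provisional names, such as Gm or Rik names, were left out of this search. *Gm57186*, which overlaps *Lefty2*, was thus not ranked. *Otx2* was nearest to *Lefty1* (1.05), followed by *Duxbl1* (1.15) and *Kctd12b* (1.19). *Lefty1* was nearest to *Lefty2* (1.36), followed by *Pex2* and *Prnp* (both 1.38). These distances are set mostly by the single low group, since *Lefty1* spanned 10.12 and *Lefty2* 7.33 log2 units. *Nodal* was nearest to *Sesn1* and *Rest* (both 0.08), *Tdgf1* to *Fhod3* (0.28) and *S1pr5* (0.31), and *Smad7* to *Kdm4c* (0.10) and *Cnksr3* (0.13), with spans of 0.71, 2.18 and 1.64 units. No other member was the nearest gene of *Nodal*, *Tdgf1* or *Smad7*.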

How the data were processed

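RNA was measured in 40 libraries, 8 groups of 8 (WT) or 4 (mutant) wells. The authors trimmed reads of a stranded total RNA library with cutadapt 2.5, aligned them with STAR 2.7.10a (genome GRCm39, gene models GENCODE M30), handled alignments with SAMtools 1.10 and deposited raw counts per gene from featureCounts 1.6.4, taking reads with a single alignment. The strand setting is not given in the sources used here. A second table deposited by the authors holds estimated counts from TEcount, which keeps reads with several alignments. These were rounded and used as an alternative only.

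The count table was used as deposited, with identifiers matched to symbols through the annotation (56017 of 56748). Genes with low counts were removed by filterByExpr on the 8 groups, and 23399 were tested with edgeR 4.0.16 (estimateDisp, glmQLFit, glmQLFTest, TMM scaling) in R 4.3.3, with 1 mean per group and all libraries in a single fit. Tables were read with data.table (1.17.8). Fold changes are fitted log2 values with SE, and CPM are computed on TMM-adjusted library sizes. Replicates were checked for repeated libraries, with no identical pair. Each mutant was compared with WT of its stage, QKO with TKO, WT EpiLCs with WT mES cells, and the passage of each mutant with that of WT as an interaction. The procedure was tested on simulated data with known changes. Counting intervals and floors of 3 counts cover counting error only.

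The members, the pathway and BMP lists, the cell type markers and the tests were chosen with earlier results of these data known. Lists are given by counts and medians, with no test of a list. Besides the members and targeted genes, the text names called list genes with the highest and lowest fold change that reach 1 CPM in either group, the 3 nearest genes by profile and called genes near the Lefty genes, with exceptions said where they occur. *Pcsk5*, *Tgfb2* and *Inhbb*, named to account for small counts, were chosen after their values were seen. The alternatives were RLE size factors, DESeq2 1.42.0, no filter, WT replicates 1 to 4 or 5 to 8 alone, the replicate number as a block, only the groups compared, the TEcount table and leaving out each library. The same alternatives for the genes near *Lbr* were added after seeing the data. Results of some genes are not reported here.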

Additional observations from a re-analysis of the deposited data

Results flagged for a closer look

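Among libraries of 1 group, 5 of the 45 groups tested held a value far from the others, where chance gives about 1 in 20. *Tdgf1* stood at 428 CPM in LBRKO EpiLC replicate 3 (others 510 to 524), 371 in TKO mES replicate 1 (others 343 to 346) and 348 in TKO EpiLC replicate 1 (others 357 to 358). *Cer1* stood at 0.0254 CPM in WT mES replicate 7 and 0.0209 in LBRKO EpiLC replicate 3, 1 count each, with the others of these groups at 0. A lone count among zeros always meets the rule, so the *Cer1* flags cannot be set against the rate of 1 in 20.

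The change from mES cells to EpiLCs differed from that in WT, by the interaction term, for *Lefty1* in QKO (2.23 ± 0.42 on the log2 scale, edgeR adjusted p = 3.97e-05) and for *Tdgf1* in TKO (-1.32 ± 0.18, adjusted p = 9.62e-07) and QKO (-1.87 ± 0.18, adjusted p = 4.59e-11). With WT replicates 1 to 4 and 5 to 8 alone, the *Lefty1* value was 2.60 and 1.47, and the *Tdgf1* values were -0.93 and -1.82 in TKO and -1.48 and -2.37 in QKO. The cause of these differences was not tested.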

How the results depend on the processing

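RLE size factors gave 2 called pathway genes in the TKO interaction (1 with TMM). DESeq2 gave 3 there and 3 for QKO against TKO mES cells (1 with edgeR). Without the filter the TKO interaction gave 3, TKO EpiLCs 0, the genes near *Lbr* in LBRKO EpiLCs 1 (2 with the filter), and *Lefty2* in the QKO interaction was at 0.05. With only the groups compared in the fit, TKO EpiLCs gave 0 pathway genes, QKO against TKO mES cells 2, and *Smad7* in LBRKO EpiLCs was at 0.00.

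With WT replicates 1 to 4 alone LBRKO mES cells had 2556 called genes (1477 with all), and pathway genes numbered 10 in LBRKO mES cells, 1 in TKO mES cells, 4 in LBRKO EpiLCs and 3 for QKO against TKO mES cells, with 1 gene near *Lbr* in LBRKO EpiLCs. Directions turned for *Lefty2* in the WT passage (-0.02), TKO mES (-0.30), QKO mES (-0.38) and the QKO interaction (0.43), *Tdgf1* in QKO mES (-0.21) and *Nodal* in QKO EpiLCs (0.00). With replicates 5 to 8 alone TKO EpiLCs had 1196 called genes (682 with all), and pathway genes numbered 8 in TKO mES cells, 0 in TKO EpiLCs, 3 for QKO against TKO mES cells, 4 in the LBRKO and 3 in the TKO interaction, with 0 genes near *Lbr* in LBRKO EpiLCs. Directions turned for *Lefty1* in TKO mES (0.90) and *Smad7* in LBRKO EpiLCs (0.01) and the TKO interaction (-0.07). The cause was not tested.

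Replicate numbers did not pair the libraries throughout: of 116 pairs of equal number 28 correlated above 0.1 (median 0.02, range -0.28 to 0.45). Between the stages of a genotype, 4 of 8 pairs were above 0.1 in WT (up to 0.45) and 3 of 4 in LBRKO (up to 0.36). In TKO it was 0 of 4 and in QKO 1 of 4. Only libraries of equal number were correlated, so no mutant library was set against a WT replicate numbered above 4. A pairing of that kind could not be found by this check and was not tested. The replicate block also joins libraries by equal number only, so the values it gives rest on those numbers. With the number as a replicate block, LBRKO mES cells had 2457 called genes, and pathway genes numbered 6 there, 0 in TKO mES cells, 2 in TKO EpiLCs, 3 for QKO against TKO mES cells and 2 in the TKO interaction, with 1 gene near *Lbr* in LBRKO EpiLCs. *Lefty1* in LBRKO EpiLCs (-1.16) and *Tdgf1* in TKO EpiLCs (-1.01) were then called, and directions turned for *Lefty2* in TKO mES (-0.02), QKO mES (-0.11) and QKO EpiLCs (-0.29), *Tdgf1* in QKO mES (0.00), *Lefty1* (-0.03) and *Nodal* (-0.02) in QKO EpiLCs and *Ephx1* in LBRKO EpiLCs (-0.01).

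TEcount gave 1 gene near *Lbr* in LBRKO EpiLCs and moved 13 of 96 alternative group levels by more than the SD: *Nodal* to 75.17, 80.69 and 93.48 CPM in WT, TKO and QKO mES cells and 56.57, 58.83 and 64.03 in WT, LBRKO and TKO EpiLCs, *Tdgf1* to 333.1 and 260.6 in TKO and QKO mES cells and 334.8 and 180.9 in TKO and QKO EpiLCs, and *Smad7* to 63.26, 75.52 and 150.3 in TKO mES, QKO mES and TKO EpiLC cells. Leaving out 1 library at a time, pathway genes numbered 1 to 2 in the TKO interaction, 0 to 1 in TKO EpiLCs and 1 to 4 for QKO against TKO mES cells, and genes near *Lbr* in LBRKO EpiLCs 1 to 2. Directions turned for *Lefty1* in TKO mES (-0.26 to 0.02), *Smad7* in the TKO interaction (-0.02 to 0.06) and LBRKO EpiLCs (-0.10 to 0.05), *Lefty2* in the QKO interaction (-0.19 to 0.04) and *Nodal* in QKO EpiLCs (-0.04 to 0.10), none of them called. All calls of members held without any 1 library. Depth limits *Cer1* and the LBRKO mES levels of the Lefty genes, which rest on 12 and 26 counts in 4 libraries.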
